A study of Mus musculus with 24 samples.

Results

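MyomiRs are the microRNAs (miRNAs) that striated muscle fibers make in quantity. The 5 myomiRs described here are miR-1 (miR-1a), miR-133a, miR-133b, miR-206 and miR-208b. They are entered as mir-1, mir-133a, mir-133b, mir-206 and mir-208b in the deposited count table of 510 miRNAs and were chosen by name. Of these 5, miR-1, miR-133a and miR-133b passed a filter on low counts that kept 237 miRNAs, while miR-206 and miR-208b did not and are described by their counts. Small RNA was sequenced from mammary tissue of female mice of the FVB strain, 3 tumor and 3 normal libraries at each of weeks 6, 8, 10 and 12, or 24 libraries in 8 groups. Tumor libraries came from heterozygous MMTV-PyMT mice, in which a mouse mammary tumor virus promoter drives the polyoma middle T antigen mainly in mammary epithelium, and normal libraries came from FVB females without the transgene. The study places hyperplasia at week 6 and adenoma or mammary intraepithelial neoplasia at week 8. Early carcinoma follows at week 10 and late carcinoma with lung metastasis at week 12. All tissue was snap-frozen and total RNA was extracted from it, so each library is a bulk sample in which fewer cells of a type and less RNA per cell cannot be told apart. Nothing in the labels ties tumor and normal animals to each other beyond a shared replicate number, and p-values measure only the spread between these libraries.

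miR-1 and miR-133a are transcribed together from paired genes in heart and skeletal muscle, where they act in muscle differentiation and growth. miR-206 and miR-133b form a neighboring pair expressed mainly in skeletal muscle, and miR-206 shares its seed, the stretch that pairs with target mRNAs, with miR-1. miR-208b lies within the gene of slow myosin, Myh7, and like miR-499 it marks slow fibers and heart, while miR-208a comes from the gene of the cardiac myosin Myh6.

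The mature sequences below are those of miR-133b, of the rare members miR-206 and miR-208b, and of miR-208a and miR-499, which served as a check and resemble miR-208b. Capitals mark the seed, bases 2 to 8, and the sequences are those of RefSeq on GRCm38.p6.
miR-133b-3p: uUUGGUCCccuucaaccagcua
miR-206-3p: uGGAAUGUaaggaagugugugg
miR-208b-3p: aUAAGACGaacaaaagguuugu
miR-208a-3p: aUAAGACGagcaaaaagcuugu
miR-499-5p: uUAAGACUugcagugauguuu
miR-208b-3p and miR-208a-3p had the same 7 seed bases and matched at 19 of 22 positions. miR-499-5p matched miR-208b-3p at 6 of 7 seed bases and at 10 of 21 positions. miR-133a and miR-133b are nearly identical in their mature form, so that the division of reads between them is uncertain.

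In the mm9 annotation, Mir206 lies on chromosome 1 from 20669091 to 20669163 and Mir133b from 20672850 to 20672968, both on the plus strand with 3686 bases between them. Mir1a-1 lies on chromosome 2 from 180123753 to 180123829 and Mir133a-2 from 180133084 to 180133187, again on the plus strand, with 9254 bases between them. None of these 4 genes overlapped another annotated gene. Mir208b lies on the minus strand of chromosome 14 from 55594537 to 55594613, in an intron of Myh7. miR-1a and miR-133a each have a further gene copy elsewhere, and counts per miRNA name do not tell the copies apart.

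Total counts ranged from 1626022 to 3931375 in normal and from 1032241 to 2213972 in tumor libraries, so that 3 counts, used as the detection floor, stood for 0.763 to 2.91 CPM, the count scaled to a common library size. Floors cover counting error only. CPM values below were scaled with TMM, a normalization that sets the bulk of the miRNAs equal between libraries. No library pair held identical values.

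miR-133a was the most abundant member, and at 3 of the 4 weeks its level differed by orders of magnitude between libraries that carry the same labels. At week 6 it stood at 84629, 28038 and 90.8 CPM in normal replicates 1, 2 and 3 and at 17682, 8796 and 2099 CPM in the tumors. At week 8 the normal libraries held 165, 236 and 330 CPM and the tumors 63.8, 50.6 and 41.5 CPM. All week 8 libraries were low, and there the 3 tumors lay below the 3 normal libraries. At week 10 the values were 154, 84.8 and 43854 CPM in normal and 112, 37.2 and 16837 CPM in tumor libraries, with replicate 3 high in both tissues. At week 12 the normal libraries held 84168, 2324 and 679 CPM and the tumors 162, 496 and 646 CPM. The tumors of week 12 thus lay below the normal libraries, although the highest tumor and the lowest normal library were close. As a share of all counts, miR-133a reached 9.19% in a normal and 1.69% in a tumor library, and its lowest shares were 0.00918% and 0.00379%.

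miR-1, which shares its transcript with miR-133a, followed the same libraries at a lower level. At week 6 it had 2180, 814 and 1.82 CPM in normal and 248, 136 and 75.5 CPM in tumor replicates 1, 2 and 3. At week 8 it had 4.73, 7.03 and 5.17 CPM in normal and 3.64, 2.35 and 0 CPM in tumor libraries, the last on a count of 0. The groups of week 6 overlapped and those of week 8 did not, although the week 8 values rested on 9 to 16 counts in normal and 0 to 6 counts in tumor libraries. At week 10 the values were 3.08, 3.32 and 1062 CPM in normal and 4.29, 1.81 and 326 CPM in tumor libraries. At week 12 they were 4427, 105 and 20.1 CPM in normal and 8.24, 4.48 and 15.1 CPM in tumor libraries. The week 12 tumor values rested on 21, 7 and 20 counts, and those of tumor replicates 1 and 2 of week 10 on 9 and 2 counts. As for miR-133a, the groups overlapped at week 10 and did not at week 12.

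miR-133b, the partner of miR-206, gave 682, 233 and 1.04 CPM in normal and 145, 62.2 and 20.9 CPM in tumor replicates 1, 2 and 3 of week 6. At week 8 it was low throughout, with 3, 5 and 10 counts in normal and 0, 0 and 2 counts in tumor libraries. At week 10 it had 2.82, 0.950 and 514 CPM in normal and 0.477, 0.907 and 135 CPM in tumor libraries. Its groups overlapped at weeks 6, 8 and 10. At week 12 the values of 741, 35.6 and 7.80 CPM in normal libraries lay above those of 1.57, 5.76 and 3.77 CPM in tumors. The week 12 tumor values of miR-133b rested on 4, 9 and 5 counts. Tumor replicates 1 and 2 of week 10 held 1 count each, under the floor of 3. Tumor libraries that all lay below the normal ones were seen in 34.6%, 19.8%, 31.6% and 28.7% of the 237 miRNAs at weeks 6, 8, 10 and 12. Against these shares, 0, 2, 0 and 3 of the 3 tested myomiRs showed that order.

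**Figure D1:**
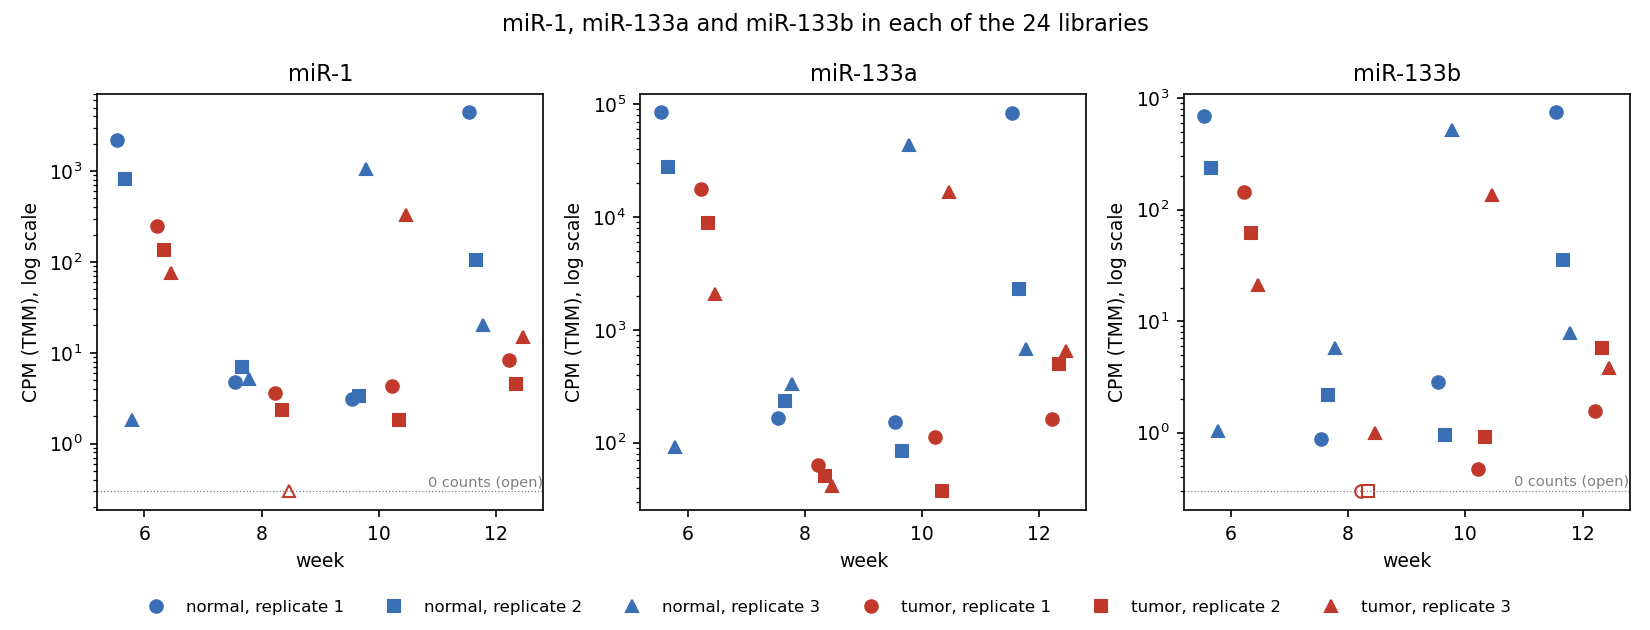
CPM after TMM of miR-1, miR-133a and miR-133b in each library on a log scale, by week, normal in blue and tumor in red, with the marker shape giving the replicate number and open markers a count of 0. Normal replicates of miR-133a spread from 90.8 to 84629 CPM at week 6 and from 84.8 to 43854 CPM at week 10, while all libraries of week 8 lie low.

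miR-206 and miR-208b were close to absent. miR-206 gave 13, 9 and 0 counts in normal and 8, 0 and 1 counts in tumor replicates 1, 2 and 3 of week 6, and 0 counts in all 6 libraries of week 8. At week 10 its counts were 0, 0 and 10 in normal and 0, 0 and 2 in tumor libraries, and at week 12 they were 29, 3 and 0 in normal and 0 in the 3 tumor libraries. The libraries with a miR-206 count all held at least 2099 CPM of miR-133a, the level of tumor replicate 3 of week 6. Over all libraries miR-206 had 64 counts in normal and 11 in tumor tissue, or 1.83 and 0.561 CPM of the pooled libraries before TMM, a ratio of 3.26 that was 1.99 without normal replicate 1 of week 12. Its mean log2 CPM was lower in tumors by a difference of -0.64, which did not pass an exact permutation test within weeks (p = 0.176, two-sided, n = 12 per tissue).

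miR-208b had 31 counts in the 24 libraries, of which 29 stood in normal replicate 1 of week 12 and 1 each in normal replicate 1 of week 6 and normal replicate 3 of week 12. All tumor libraries had 0 counts, so that the pooled normal level was at least 5.80-fold higher than the floor of 3 counts over the pooled tumor libraries. Without normal replicate 1 of week 12, however, the 2 remaining counts lay under the floor and gave no fold. The difference in mean log2 CPM was -0.39 (p = 0.2, exact permutation test within weeks, two-sided, n = 12 per tissue). Only 3 libraries held a count and all were normal, so this p was the lowest the test could give. The test therefore could not decide whether miR-208b differed. miR-499, whose seed resembles that of miR-208b, had 95 of its 162 counts in that same normal library, and no other library had more than 10. miR-208a, of the cardiac Myh6 gene, had 0 counts in all 24 libraries.

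Summed over the libraries, 24107 counts of miR-1 came from normal and 1326 from tumor libraries, and 658350 and 76387 counts of miR-133a. For miR-133b the sums were 6051 and 616 counts. The normal share was 94.8% for miR-1, 89.6% for miR-133a and 90.8% for miR-133b, beside 64.1% of the counts of all miRNAs, and a few normal libraries carry most of the myomiR counts.

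Week by week, tumor was tested against normal by the quasi-likelihood method of edgeR, which asks whether a myomiR differed by more than the spread between the 3 libraries of a group. No myomiR passed at week 6, miR-133a alone was under-expressed in tumor at week 8, none passed at week 10, and all 3 tested myomiRs were under-expressed at week 12. Among all 237 miRNAs, 29.5%, 13.5%, 27.4% and 21.5% were under-expressed at weeks 6, 8, 10 and 12. The median log2 fold change (tumor over normal) of the 3 myomiRs was -2.02, -2.25, -1.67 and -6.19 at these weeks, where the median of all tested miRNAs was -0.12, -0.09, -0.15 and -0.19.

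At week 12 the log2 fold change of miR-1 was -7.37 with a standard error of 2.03 (edgeR adjusted p = 0.0199 after Benjamini-Hochberg correction, with 3 libraries per group). That of miR-133a was -6.08 (standard error 1.80, edgeR adjusted p = 0.0258) and that of miR-133b was -6.19 (standard error 1.72, edgeR adjusted p = 0.0199). Means of log2 CPM lay closer together, at 3.20 in tumor and 7.74 in normal libraries for miR-1. They were 8.55 and 12.32 for miR-133a and 2.08 and 5.95 for miR-133b. The edgeR sizes rested on normal replicate 1. Without it the log2 fold changes were -2.72 for miR-1, -1.76 for miR-133a and -2.57 for miR-133b, and miR-133a no longer passed (edgeR adjusted p = 0.0584). Leaving out any 1 of the 3 tumor libraries kept the direction, at -7.87 to -6.86 for miR-1, but took the call from all 3 myomiRs, with edgeR adjusted p-values of 0.0589 to 0.0984. With the sequencing lane as a covariate the log2 fold changes were -4.43 for miR-1, -2.90 for miR-133a and -4.05 for miR-133b, and none passed (edgeR adjusted p = 0.0546, 0.165 and 0.0637). With the replicate number as a block they were -4.70, -2.88 and -4.41, and miR-133a did not pass (edgeR adjusted p = 0.00932, 0.0699 and 0.00629), in a fit that called 21.5% of the miRNAs under-expressed.

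At week 8, where the spread was small, miR-133a had a log2 fold change of -2.25 (standard error 0.35, edgeR adjusted p = 0.00327). With any 1 library left out it ranged from -2.43 to -1.95 and passed in all 6 fits. In a single fit of all 24 libraries, which shares 1 estimate of the spread, it was -2.23 and did not pass (edgeR adjusted p = 0.391). miR-1 and miR-133b had log2 fold changes of -1.60 (standard error 0.78, edgeR adjusted p = 0.136) and -2.48 (standard error 1.13, edgeR adjusted p = 0.117). With the replicate number as a block, miR-133b passed at week 8 as well, at -2.81 (edgeR adjusted p = 0.0390), in a fit that called 28.7% of the miRNAs under-expressed.

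At weeks 6 and 10 the differences were smaller than the spread between replicates. The week 6 log2 fold changes were -2.71 for miR-1 (standard error 1.56), -2.0 for miR-133a (standard error 1.61) and -2.02 for miR-133b (standard error 1.50), with edgeR adjusted p-values of 0.168, 0.298 and 0.266. These follow group means of counts, in which a high library weighs most. The mean log2 CPM of miR-1 was 7.11 in tumor and 7.40 in normal libraries. For miR-133a it was 12.75 and 12.55, higher in tumor, and for miR-133b 5.87 and 6.07. Normal replicate 3 was the low one among the normal libraries of week 6, with 7 counts of miR-1. Similar counts were seen in normal libraries of week 8 (16, 16 and 9) and in normal replicates 1 and 2 of week 10 (12 and 14). Without normal replicate 3 of week 6 the 3 myomiRs passed, at -3.29, -2.58 and -2.60 (edgeR adjusted p = 0.00114, 0.0133 and 0.00974). That fit called 150 of all tested miRNAs in either direction, beside 139 with all libraries of week 6. At week 10 the log2 fold changes were -1.67 for miR-1 (standard error 2.34), -1.36 for miR-133a (standard error 2.55) and -1.91 for miR-133b (standard error 2.34), with edgeR adjusted p-values of 0.535, 0.645 and 0.488. Without normal replicate 3 of week 10 they turned to 5.0, 5.45 and 4.46, none of which passed.

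**Figure D2:**
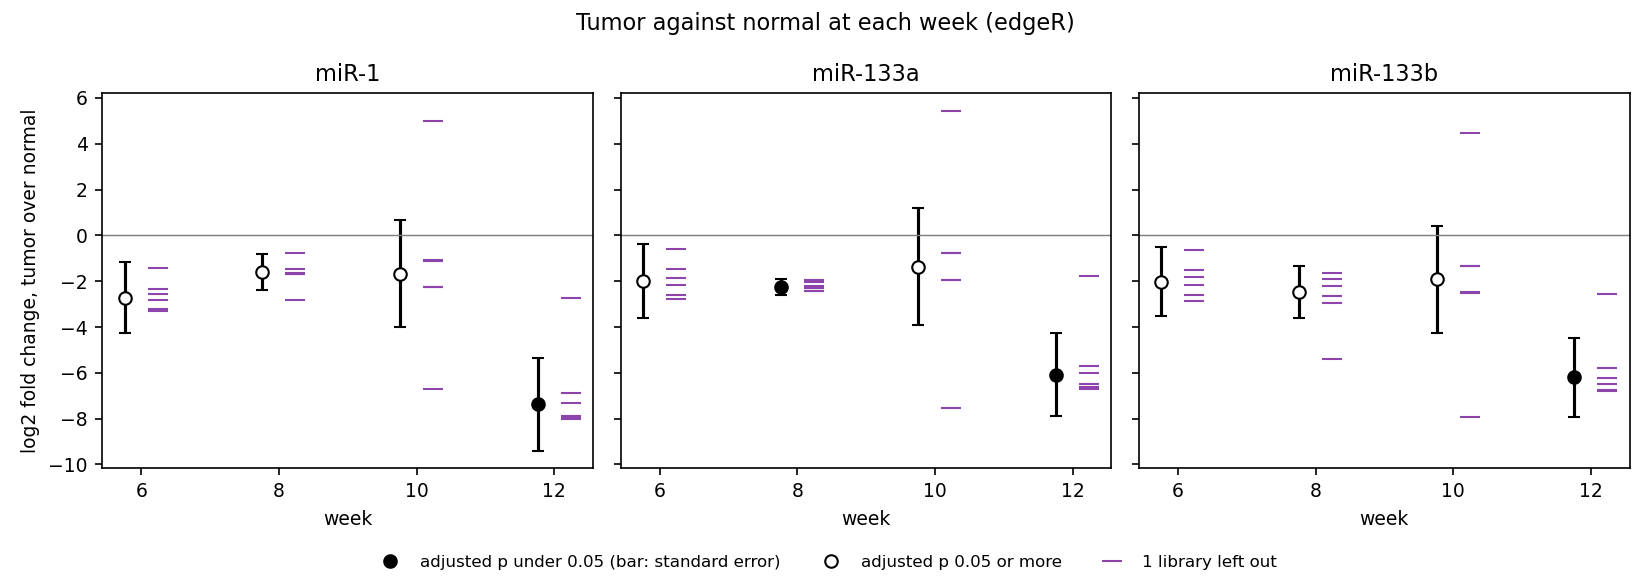
Log2 fold change (tumor over normal) of miR-1, miR-133a and miR-133b at each week from edgeR, with bars of 1 standard error, filled points for an adjusted p under 0.05 and short lines for the fits without 1 library. The standard errors of weeks 6, 10 and 12 lie between 1.50 and 2.55, and the filled points are miR-133a at week 8 and all 3 myomiRs at week 12.

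Libraries of the same week and replicate number went together at week 10, where tumor and normal replicates 3 were both high. With the replicate number as a block, the log2 fold changes of week 10 were -1.13 for miR-1, -1.01 for miR-133a and -1.87 for miR-133b, and all 3 passed (edgeR adjusted p = 0.0197, 2.04e-04 and 7.61e-04), in a fit that called 32.9% of the miRNAs under-expressed. Without both replicates numbered 3 of week 10, miR-1 stood at 0.047, miR-133a at -0.69 and miR-133b at -1.54, of which miR-133a passed (edgeR adjusted p = 0.0304). That fit called 148 of all tested miRNAs in either direction, beside 143 with all libraries of week 10. Over the 9 same-numbered pairs of weeks 6, 8 and 10, the tumor was the lower of the pair in 7 for miR-1, in 8 for miR-133a and in 8 for miR-133b. These weeks were chosen by a correlation between same-numbered libraries that rests in part on the myomiRs. Over all 12 pairs the tumor was lower in 10, 11 and 11. How many of all tested miRNAs reach such counts was not determined. The pair numbered 3 at week 6 went the other way for the 3 myomiRs, with tumor over normal at 4.83, 4.52 and 3.51 on the log2 scale.

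As the mean of the 4 weeks in a single fit of 24 libraries, miR-1, miR-133a and miR-133b were under-expressed in tumor, as were 46.8% of all tested miRNAs. The log2 fold changes were -3.33 (standard error 1.15, edgeR adjusted p = 0.0116), -2.91 (standard error 1.1, edgeR adjusted p = 0.0192) and -3.16 (standard error 1.21, edgeR adjusted p = 0.0211). With the replicate number as a block they were -2.15, -1.64 and -2.52, of which only miR-133b passed (edgeR adjusted p = 0.0501, 0.0590 and 0.0140), in a fit that called 45.1% of the miRNAs under-expressed. Each passed in 22 of 24 fits with 1 library left out. Without normal replicate 1 of week 12 they were -2.18, -1.84 and -2.26 (edgeR adjusted p = 0.0580, 0.0920 and 0.0768). Without normal replicate 3 of week 10 they were -1.64, -1.18 and -1.53 (edgeR adjusted p = 0.132, 0.229 and 0.203).

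The labels place each library on 1 of 2 sequencing lanes, and the averages over the weeks differed between them. On lane 1, tumor minus normal in mean log2 CPM, averaged over the weeks, was -3.05 for miR-1, -3.30 for miR-133a and -3.29 for miR-133b. On lane 2 the same differences were -0.37, -0.22 and -0.24. Each average leaned on 1 tumor and 1 normal library. Those of week 12 on lane 1 differed by -8.92, -9.01 and -8.25, and those of week 6 on lane 2 by 4.83, 4.52 and 3.51. At the other weeks the ranges were -2.85 to 0.39, -1.97 to -0.45 and -2.06 to -1.41 on lane 1. On lane 2 they were -2.79 to -1.17, -2.97 to -1.15 and -1.83 to -0.98. Same-numbered libraries of a week shared a lane, and the part of the lane in the result was not tested.

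Whether the difference between tumor and normal changed with stage was asked with interaction contrasts. From week 6 to week 12 the log2 fold change moved by -4.67 for miR-1 (standard error 2.95), -4.08 for miR-133a (standard error 2.98) and -4.18 for miR-133b (standard error 2.91). None of these passed (edgeR adjusted p = 0.432, 0.461 and 0.448), and 0.422% of the tested miRNAs did. The test of any variation between the 4 weeks gave an edgeR adjusted p of 0.938 for each myomiR and called 0 of 237 miRNAs, with 9 at an unadjusted p under 0.05. The larger fold change of week 12 was therefore not shown to differ from that of week 6.

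Normal glands of week 12 and week 6 did not differ detectably in the 3 myomiRs, with log2 differences of 0.60 for miR-1 (standard error 1.93), -0.37 for miR-133a (standard error 2.03) and -0.22 for miR-133b (standard error 1.85). Their edgeR adjusted p-values were 0.876, 0.927 and 0.942, beside 21.1% of miRNAs called in that comparison. In tumors the week 12 libraries stood below the week 6 libraries by log2 differences of -4.06 for miR-1 (standard error 2.28), -4.46 for miR-133a (standard error 2.34) and -4.40 for miR-133b (standard error 2.31). These did not pass either (edgeR adjusted p = 0.260, 0.226 and 0.226), where 7.59% of miRNAs did.

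Within groups, the 3 tested myomiRs varied more than almost all other miRNAs. The SD between replicates, pooled over weeks on the log2 CPM scale, was 4.06 for miR-133a, 4.01 for miR-1 and 3.60 for miR-133b in normal libraries, ranks 1, 3 and 4 of 237, against a median of 0.40. In tumors it was 2.53, 2.06 and 2.04, ranks 2, 5 and 6, against a median of 0.31. The highest SD in tumors was 2.69, that of miR-196a, a miRNA of the Hox clusters named here after its values were seen. In normal libraries miR-196a had an SD of 4.04, rank 2, between miR-133a and miR-1. miR-196b had 2.97 in normal and 2.21 in tumor libraries, ranks 5 and 4, so a spread of this size was not particular to the myomiRs. In single groups, the highest normal library exceeded the lowest by 932-fold at week 6, 517-fold at week 10 and 124-fold at week 12 for miR-133a, but by 2.0-fold at week 8.

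**Figure D3:**
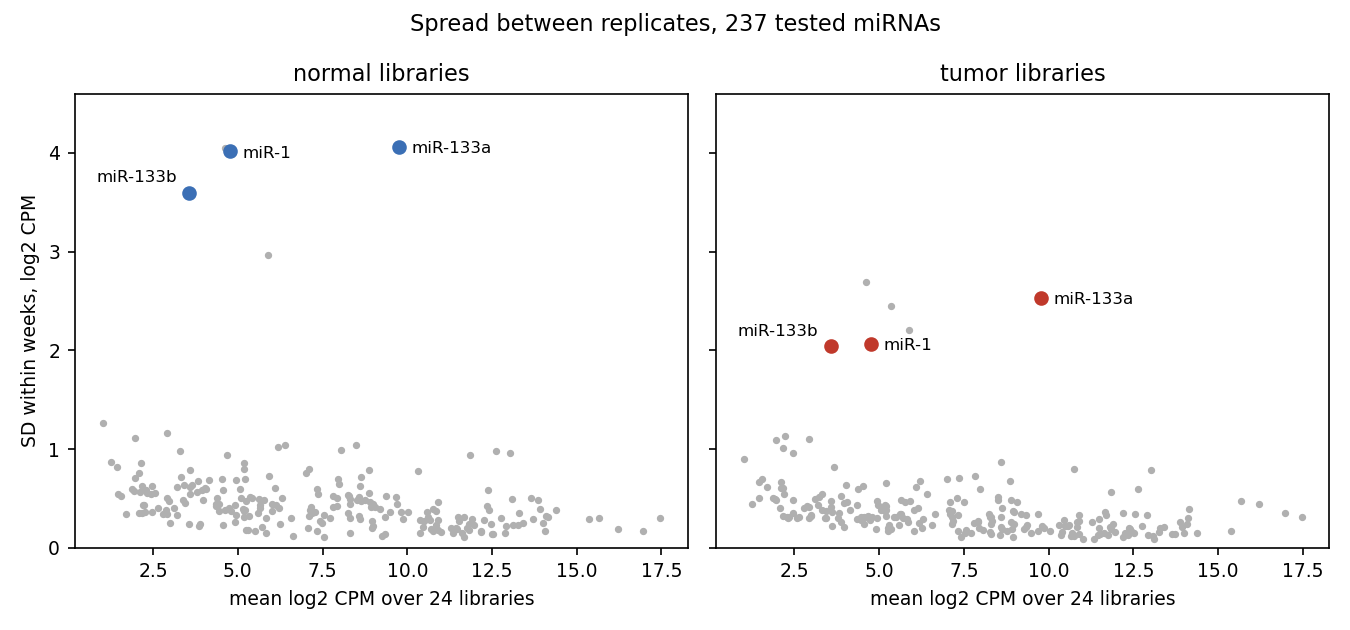
SD between replicates within weeks (log2 CPM) against mean log2 CPM for the 237 tested miRNAs, in normal libraries on the left and tumor libraries on the right, with the 3 myomiRs colored. In normal libraries the myomiRs have SDs of 3.60 to 4.06 and most other miRNAs lie under 1.

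The myomiRs varied together, library by library. Over the 24 libraries, Pearson's r of log2 CPM was 0.98 between miR-1 and miR-133a, 0.97 between miR-1 and miR-133b and 0.99 between miR-133a and miR-133b, and 0.98, 0.95 and 0.98 for deviations from the group means. The points share their libraries and scaling, and these values are a description. The library with the highest value was the same for all 3 in 5 of 8 groups, and the lowest was the same in 4 of 8. miR-133a and miR-133b, although encoded on different chromosomes, had an r of the same order as miR-133a and its gene neighbor miR-1. Since the mature forms of miR-133a and miR-133b are nearly identical, the part of reads assigned to the wrong one of them in this r was not tested.

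**Figure D4:**
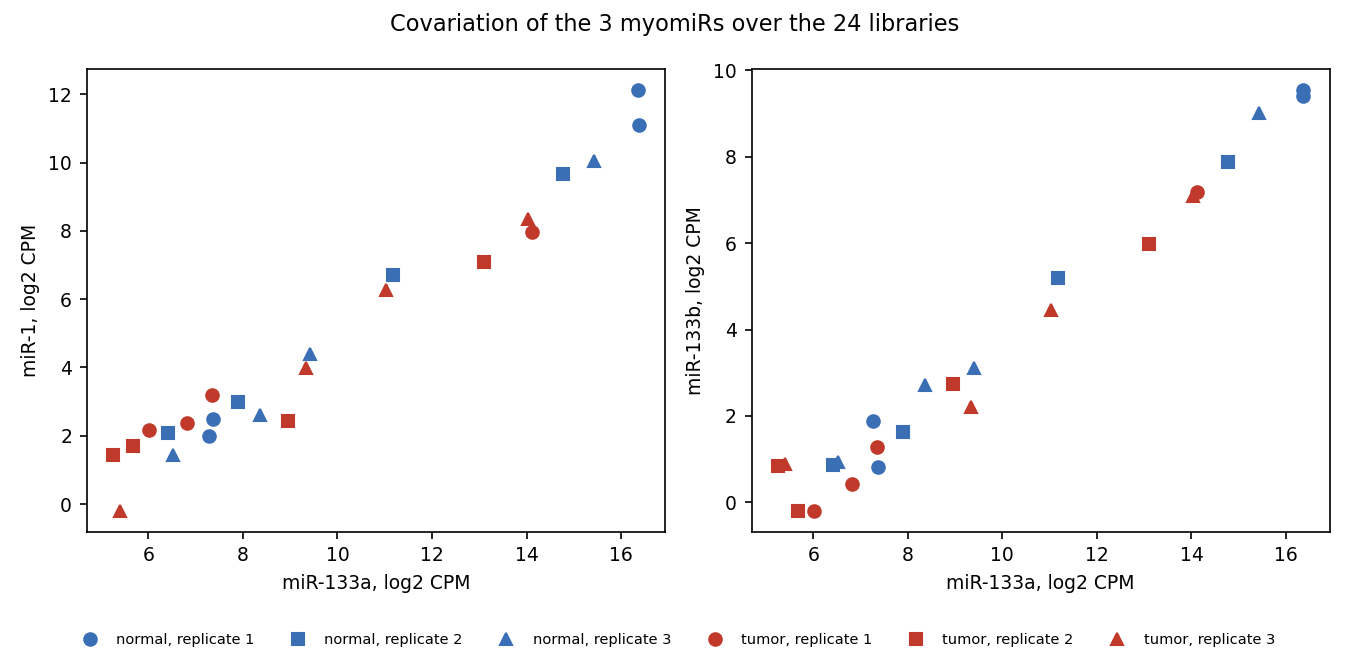
Log2 CPM of miR-1 and miR-133b against that of miR-133a in the 24 libraries, normal in blue and tumor in red, with the marker shape giving the replicate number. Points of both tissues lie along 1 line, with r of 0.98 for miR-1 and 0.99 for miR-133b.

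The ratio of 1 myomiR to another within a library does not depend on the scaling between libraries. In the 9 libraries with at least 100 miR-1 counts, which kept counting error small, there were 19 to 71.2 miR-133a counts per miR-1 count, with a median of 38.8. In the same libraries there were 7.07 to 15.3 miR-133b counts per 1000 miR-133a counts, with a median of 8.32. For the log2 ratios over all libraries 2 was added to each count, so that ratios of few counts also depend on depth. The log2 ratio of miR-133a to miR-1 was 4.92 ± 1.06 (SD, n = 12) in tumor and 5.02 ± 0.44 (SD, n = 12) in normal tissue (p = 0.755, exact permutation test within weeks, two-sided). The log2 ratio of miR-133b to miR-133a was -5.96 ± 1.12 (SD, n = 12) in tumor and -6.28 ± 0.51 (SD, n = 12) in normal tissue (p = 0.338, exact permutation test within weeks, two-sided). Neither ratio differed detectably between tissues, while the levels themselves spanned several orders of magnitude. Both differences between tissues changed sign when 0.5 was added in place of 2. Ratios of reads also carry ligation and amplification differences between sequences and are not molar ratios.

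The tested miRNAs outside the 5 myomiRs whose log2 CPM over the 24 libraries was most like the mean of miR-1, miR-133a and miR-133b were miR-149 (r = 0.88), miR-483 (r = 0.87), miR-486 (r = 0.74), miR-378 (r = 0.71) and miR-539 (r = 0.60). The median r of the 234 other tested miRNAs was 0.0182. On deviations from group means the 5 values were 0.91, 0.85, 0.69, 0.65 and 0.62. miR-483, encoded within Igf2, is a low-count miRNA here, while miR-486, a product of the Ank1 gene in muscle and red cells, and miR-378, from Ppargc1b, are abundant. miR-149 ranged from 45.2 to 423 CPM in normal and from 32.9 to 138 CPM in tumor libraries, a far narrower range than that of the myomiRs.

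**Figure D5:**
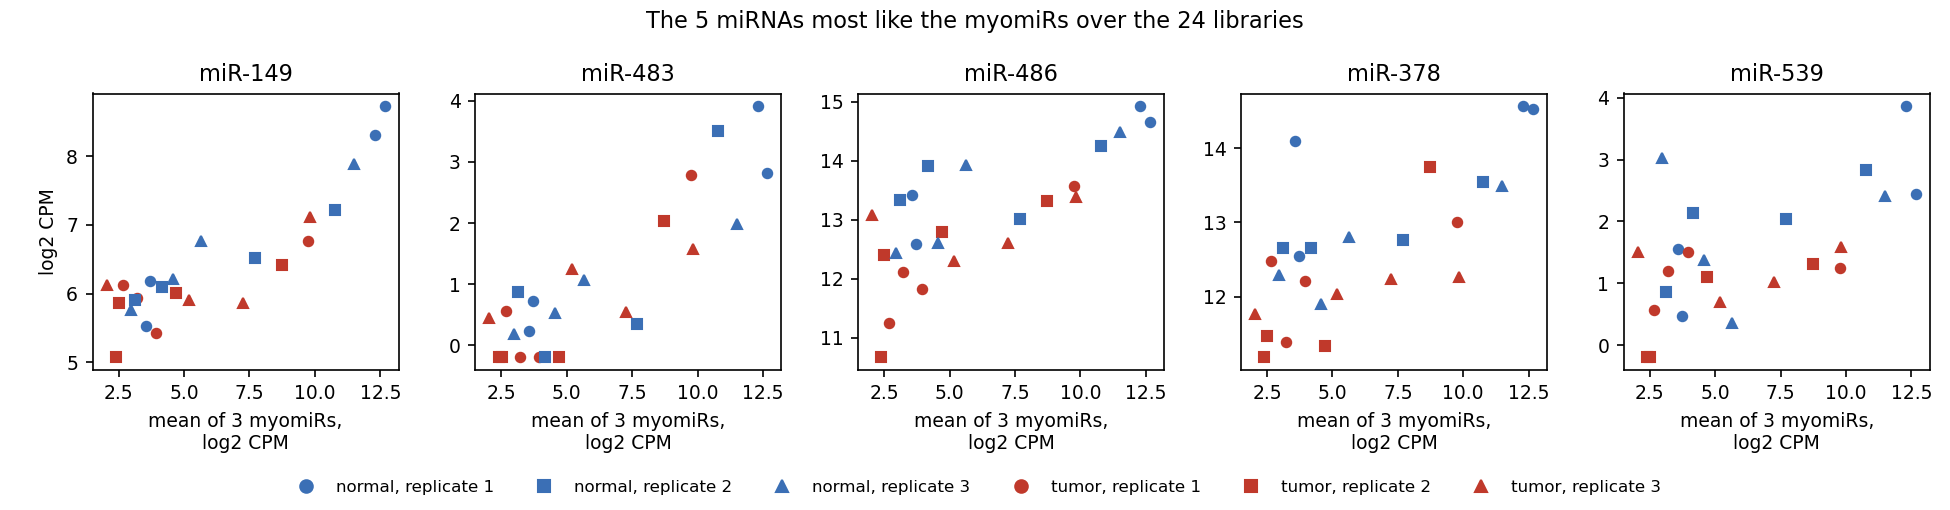
Log2 CPM of the 5 miRNAs most like the myomiRs against the mean log2 CPM of miR-1, miR-133a and miR-133b in the 24 libraries, 1 panel each, normal in blue and tumor in red, with the marker shape giving the replicate number. miR-149 (r = 0.88) and miR-483 (r = 0.87) follow the myomiRs most closely.

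Of 4 further striated muscle miRNAs (miR-486, miR-378, miR-499 and miR-208a), miR-486 and miR-378 passed the count filter. Under-expressed in tumor were 0, 0, 1 and 2 of these 2 tested miRNAs at weeks 6, 8, 10 and 12, beside 29.5%, 13.5%, 27.4% and 21.5% of all tested miRNAs, with median log2 fold changes of -0.80, -1.36, -1.07 and -1.70. miR-378 had -1.21 at week 10 (standard error 0.32, edgeR adjusted p = 0.0155) and -1.72 at week 12 (standard error 0.52, edgeR adjusted p = 0.0287). miR-486 had -1.69 at week 12 (standard error 0.45, edgeR adjusted p = 0.0176). Both also occur outside muscle, and their lowest normal levels were 5544 CPM for miR-486 and 3839 CPM for miR-378, so that neither came near the floor as miR-1 and miR-133b did.

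Markers of other cell types moved between tumor and normal with less spread than the myomiRs. The smooth muscle and myoepithelial miR-143 and miR-145 were under-expressed in tumor at all 4 weeks (2 of 2), as were fibroblast miR-199a, miR-199b and miR-214 (3 of 3) and endothelial miR-126 (1 of 1). Of 7 epithelial miRNAs (the miR-200 family, miR-205 and miR-203), 5 were over-expressed in tumor at each week and 1, miR-203, was under-expressed at week 12. Among all tested miRNAs, 29.1%, 21.9%, 32.9% and 29.1% were over-expressed at weeks 6, 8, 10 and 12, beside the under-expressed shares given above. Of 2 adipocyte miRNAs, miR-193b was over-expressed at week 6 and none was called at the other weeks, and 1, 0, 1 and 2 of 2 erythroid miRNAs were under-expressed. The summed CPM of the members ranged at week 6 from 93.6 to 87497 in normal and from 2196 to 18079 in tumor libraries, whereas that of miR-143 and miR-145 ranged from 144030 to 174649 and from 90136 to 101861. Within groups, deviations in log2 CPM were averaged over the tested miRNAs of each list and set against those of the myomiRs. Their r was 0.75 for the further striated muscle miRNAs, 0.20 for erythroid, 0.06 for epithelial and 0.004 for adipocyte miRNAs. It was -0.25 for endothelial, -0.27 for fibroblast and -0.37 for smooth muscle miRNAs (n = 24 libraries, a description). miR-486, made in muscle and red cells, had an r of 0.69 by itself and was counted with striated muscle only. miR-378, also linked to adipocytes, had an r of 0.65 by itself and was likewise counted with striated muscle only. The adipocyte miR-193b and miR-365 had 0.26 and -0.30. miR-486 and miR-378 are also among the 5 miRNAs most like the myomiRs. The values of 0.75, 0.20 and 0.004 depend on these placements. The part of muscle fibers or other cells in the tissue pieces was not tested.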

How the data were processed

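Small RNA libraries (24) were made by the authors from total RNA of mammary tissue. The authors trimmed reads, kept lengths of 17 to 27 bases, aligned them with Bowtie, counted reads overlapping a miRBase miRNA by at least 50%, and deposited raw counts per miRNA. The labels and processing notes name mm9 and the study's methods name mm10, and counts carry no coordinates. Groups, weeks, replicate numbers and lanes came from the labels. The 5 members and all lists were chosen with earlier results of these data known.

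edgeR 4.0.16 in R 4.3.3 was used with TMM, filterByExpr over the 8 groups, quasi-likelihood F tests and p-values adjusted by Benjamini-Hochberg over 237 miRNAs, with a threshold of 0.05, per week or in a fit of 24 libraries. The standard error is the size of the log2 fold change divided by the square root of F. Log2 CPM values had a prior count of 2. Permutation tests were exact over 160000 arrangements within weeks. Deviations of same-numbered libraries correlated over 0.1 in each pair of weeks 6, 8 and 10 (0.196 to 0.816) and not at week 12 (0.0312 to 0.424), so by this rule weeks 6, 8 and 10 were read as paired, from the data alone. This choice rests in part on the myomiRs: without them the lowest correlation was 0.0987 at week 6 and 0.203 at week 12, which turns both weeks, so blocked values are also given at week 12 and for the mean. Named miRNAs are the members, the 5 with the highest r with their mean, and listed markers past the threshold. Alternatives were DESeq2 1.42.0 (size factors and Wald test), library sizes only, a minimum of 10 counts in every library, no filter, the block, lane, a single fit, a prior count of 0.5, and libraries left out singly or, chosen after seeing the data, in same-numbered pairs. The edgeR fits without block or lane were tested on simulated counts. Their simulated spread was capped, so a spread as wide as that of the myomiRs was not covered, nor were the permutation tests. mRNA and target data were not analysed here.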

Additional observations from a re-analysis of the deposited data

How the results depend on the processing

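Low counts limit miR-206, miR-208b and all week 8 values of miR-1 and miR-133b. They also limit miR-1 and miR-133b in normal replicate 3 of week 6, replicates 1 and 2 of week 10 and the tumors of week 12. Depth was not low in all of these. Total counts were 3486314 in normal replicate 3 of week 6 and 3931375 and 3888000 in normal replicates 1 and 2 of week 10. Of the alternatives other than libraries left out, 152 kept direction and side of the threshold, 5 newly passed, 7 no longer passed and 2 turned direction. The cause was not tested. With the replicate number as a block, week 8 miR-133b was -2.81 and week 10 miR-1, miR-133a and miR-133b were -1.13, -1.01 and -1.87, all passing. Under the block miR-133a was -2.88 (edgeR adjusted p = 0.0699) at week 12, and the 4-week means of miR-1 and miR-133a were -2.15 and -1.64, none passing. The block changed no other call of the myomiRs and 9 of 12 tumor libraries correlated best with their own number. With lane as a covariate, week 8 miR-133b was -2.86 and passed, while week 12 miR-1, miR-133a and miR-133b were -4.43, -2.90 and -4.05 and did not (edgeR adjusted p = 0.0546, 0.165 and 0.0637). In the single fit, week 8 miR-133a was -2.23 and did not pass (edgeR adjusted p = 0.391). With a prior count of 0.5, the log2 ratio differences were 0.16 (miR-133a to miR-1) and -0.13 (miR-133b to miR-133a) against -0.10 and 0.32. Without both libraries numbered 3, week 6 gave -2.91, -2.05 and -2.09, all passing. Week 10 without them gave 0.047 for miR-1 and -0.69 for miR-133a, which passed. These fits called 125 of all tested miRNAs at week 6 and 148 at week 10, in either direction. Without both libraries numbered 1, week 12 gave -2.64, -1.36 and -2.13, none passing.

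With 1 library left out, the ranges for miR-1, miR-133a and miR-133b were -3.29 to -1.43, -2.77 to -0.59 and -2.87 to -0.64 at week 6, -6.70 to 5.0, -7.55 to 5.45 and -7.94 to 4.46 at week 10, and -7.99 to -2.72, -6.70 to -1.76 and -6.81 to -2.57 at week 12. They were -4.60 to -1.64, -4.47 to -1.18 and -4.67 to -1.53 for the 4-week mean, and -4.0 to 1.90, -4.65 to 1.05 and -3.81 to 1.16 for week 12 against week 6 in normal glands. The week 6 to 12 change of miR-133a ranged from -5.50 to 0.19 and the miR-133a to miR-1 ratio difference from -0.26 to 0.036. Over all miRNAs, 139, 84, 143 and 120 were called at weeks 6, 8, 10 and 12, 131 at week 8 with the block, and as few as 59, 15, 54 and 58 with a same-numbered pair left out, or 78, 50 and 74 at weeks 6, 8 and 12 with 1 tumor library left out. miR-1 and miR-133b gave no value with at least 10 counts in every library, and 6 values of the DESeq2 Wald test had no adjusted p.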

Other observations

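miR-149 and miR-483, whose levels were most like those of the myomiRs, were also compared between tumor and normal. For miR-149 the edgeR log2 fold change at week 12 was -1.93 (standard error 0.60, adjusted p = 0.0308), that of week 8 was -0.12 (standard error 0.36, edgeR adjusted p = 0.786), and that of the 4-week mean was -0.90 (standard error 0.32, edgeR adjusted p = 0.0146). miR-483 did not pass as the mean of the 4 weeks, at -1.11 (standard error 0.94, edgeR adjusted p = 0.268). miR-539, of the Dlk1-Dio3 domain, was under-expressed at week 6, at -2.61 (standard error 0.48, edgeR adjusted p = 0.00460), and as the mean of the 4 weeks, at -1.30 (standard error 0.43, edgeR adjusted p = 0.00954).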
